A study of Caenorhabditis elegans with 3 samples.

Results

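The genes described here encode the factors that start and drive protein synthesis and the enzymes that load amino acids onto transfer RNAs (tRNAs). They were chosen by name from the Ensembl WBcel235 gene models of Caenorhabditis elegans, as the protein-coding genes named eef-, eif- or iff- and a number, with the aminoacyl-tRNA synthetase genes named by 1 letter and ars-1 or ars-2. The rule gave 64 of 19973 protein-coding genes on 6 chromosomes, of which 27 are initiation factor genes, 6 elongation factor genes and 31 synthetase genes. Binding was measured by ChIP-seq, the sequencing of DNA that precipitates with a protein, for DRAP-1, the worm relative of the alpha subunit of negative cofactor 2. That cofactor is a dimer that binds the TATA-binding protein on promoter DNA.

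All samples were of strain OP700. It carries the transgene wgIs700, from which DRAP-1 is made with a C-terminal TY1, EGFP and 3xFLAG tag, together with an unc-119(+) marker in an unc-119 (tm4063) background. The labels describe whole embryos of mixed stage and mixed sex, collected by egg bleaching, with an age of 3 hours. They name an antibody against GFP in the sample descriptions and drap-1 in the antibody field. The 3 samples are biological replicates of 1 group, numbered 2, 3 and 4, and no other group is among them. The deposited data are ranked lists of regions and not reads, so the read depth is unknown. Each replicate and the pooled reads have 30000 candidate regions, and a list of 1468 peaks passed a threshold on the irreproducible discovery rate (IDR), a measure of how well ranks repeat between replicates. Those 1468 peaks are the 1468 regions of highest signal in the pooled list.

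Initiation factors as a class place the initiator tRNA and the small ribosomal subunit at the start codon of a messenger RNA. The class was set by gene name here, so single members can act in other ways. Elongation factors then bring in charged tRNAs and move the ribosome along. Synthetases attach each amino acid to its tRNAs, and separate genes often serve the cytoplasm and the mitochondrion. All 3 groups include housekeeping genes that growing embryos depend on.

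DRAP-1 peaks were found at most elongation factor genes, at a minority of initiation factor genes and at 1 synthetase gene. A gene was called bound when an IDR summit lay within 500 bp of its annotated 5′ end. By that rule 12 of the 64 genes were bound (18.8%, exact Clopper-Pearson 95% interval 10.1 to 30.5), against 3.75% of all protein-coding genes (748 of 19973). Bound genes made up 5 of 6 elongation factor genes (83.3%, interval 35.9 to 99.6) and 6 of 27 initiation factor genes (22.2%, interval 8.62 to 42.3). The share of synthetase genes was 1 of 31 (3.23%, interval 0.0816 to 16.7), which is near the background. These intervals cover the counting of genes only. When 1 replicate was left out and a peak had to be found in both of the others (within 100 bp of a summit among their 1468 highest regions), the 12 bound genes became 8 without replicate 2 and 7 without replicate 3 or 4. The share of all coding genes fell as well, from 3.75% to 2.16% without replicate 2 and to 2.05% without replicate 3 or 4. The IDR list itself was not remade, so the left-out replicate still helped to set its peaks and summits. The 5 bound elongation factor genes became 3 without replicate 2 and 2 without replicate 3 or 4. With a window of 250 bp, or with each peak counted only for its nearest gene of any kind, 3 elongation factor genes were bound, and 4 when it counted for its nearest coding gene.

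The same order was seen in each replicate. Among the 1468 highest-signal regions of replicates 2, 3 and 4, summits lay at 33.3%, 66.7% and 66.7% of elongation factor genes. The shares of initiation factor genes were 18.5%, 14.8% and 22.2%, and those of synthetase genes were 3.23%, 9.68% and 3.23%. The 3 ranges did not overlap, and the background in all protein-coding genes was 3.41%, 3.39% and 3.48%. As means the shares were 55.6% ± 19.2, 18.5% ± 3.70 and 5.38% ± 3.72 (SD, n = 3), with 3.43% ± 0.0445 for all coding genes. Elongation exceeded initiation by 37.0 ± 19.6 percentage points and initiation exceeded synthetases by 13.1 ± 7.18 points (SD, n = 3), in 3 of 3 replicates each. The difference between initiation and synthetases was smallest in replicate 3, at 5.14 points. No test was made between classes, since genes are not replicates. The elongation shares rest on 6 genes, so 1 gene moves them by a large step.

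**Figure D1:**
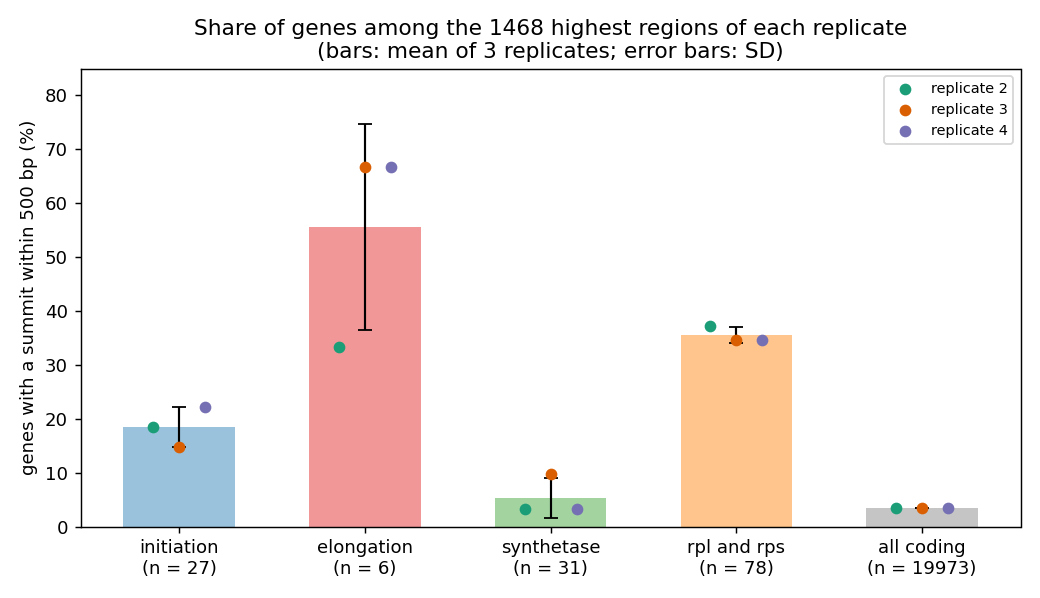
Percent of genes (vertical axis) with a summit within 500 bp of the 5′ end among the 1468 highest regions of each replicate, for the 3 classes, ribosomal protein genes (rpl and rps) and all protein-coding genes. Points are replicates, bars their mean and error bars the SD; synthetase genes (mean 5.38%) lie close to all coding genes (3.43%), and elongation factor genes are highest and most spread.

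With the weaker regions of the pooled list counted as well, the order of the classes stayed the same and their shares lay closer together. Any pooled candidate, however weak, lay within 500 bp of the 5′ end of all 6 elongation factor genes, of 19 of 27 initiation factor genes (70.4%) and of 17 of 31 synthetase genes (54.8%). The background for that looser call was 31.3% of all coding genes. Of the genes with such a candidate, 28.6% of the 42 translation genes were bound, against 12.0% of 6247 coding genes. Ribosomal protein genes, whose products build the particle these factors act on, had a pooled candidate in 72 of 78 cases and were bound in 32 (41.0%). In the replicates their share was 35.5% ± 1.48, above that of initiation factor genes in 3 of 3 replicates, by 17.0 ± 3.99 percentage points (SD, n = 3).

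**Figure D2:**
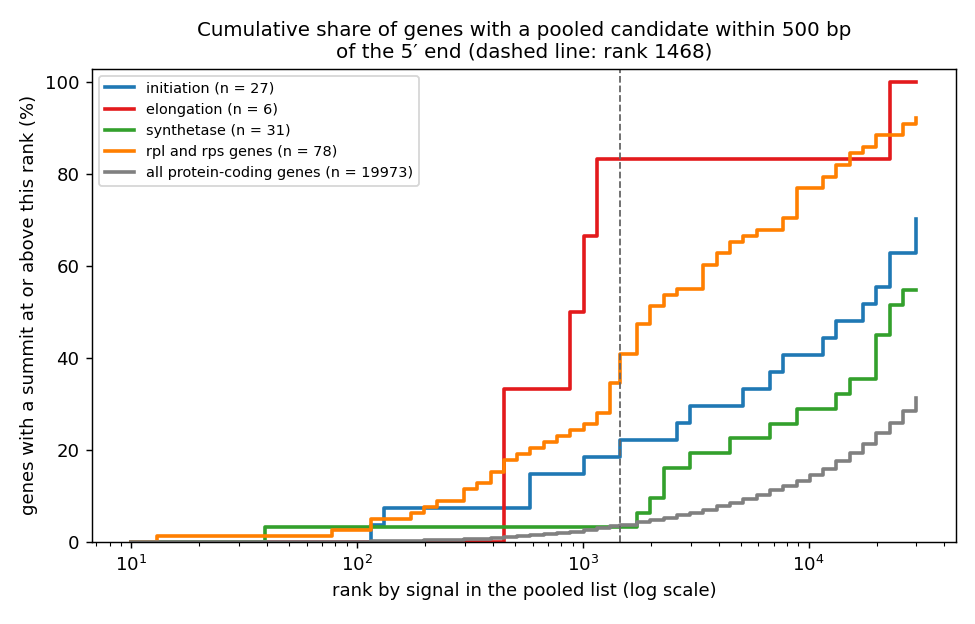
Cumulative percent of genes (vertical axis) whose strongest pooled candidate within 500 bp of the 5′ end has at least the rank on the horizontal log axis, by class. At rank 1468 (dashed) the curves stand at 83.3% for elongation, 41.0% for rpl and rps, 22.2% for initiation, 3.23% for synthetase and 3.75% for all coding genes.

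Both genes for elongation factor 1-alpha were bound. This GTPase carries each charged tRNA to the ribosome, and the promoter of eef-1A.1, under its older name eft-3, is widely used to drive transgenes in most worm tissues. Their pooled ranks were close, at 424 for eef-1A.1 and 414 for eef-1A.2, with pooled signals of 228.8 and 230.3. The eef-1A.2 peak ranked 480, 407 and 404 in replicates 2, 3 and 4. The eef-1A.1 peak ranked 528, 1233 and 195, so it was among the 1468 highest regions of every replicate but with a wider spread. Both summits lay far upstream, at −395 bp for eef-1A.1 and −382 bp for eef-1A.2, where negative values are upstream on the strand of the gene.

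Neither summit was nearest to its eef gene. The eef-1A.1 peak (ce11, chromosome III, 6971895 to 6972318) lies between divergent genes, and its summit is 22 bp from the 5′ end of the microRNA gene cel-mir-5549. The nearest coding 5′ end there is that of rfc-4, a replication factor C subunit gene. The eef-1A.2 peak (X, 7823060 to 7823483) lies 253 bp from the 5′ end of the noncoding RNA gene R03G5.8, and eef-1A.2 is the nearest coding gene. The eef-1A.1 peak is thus assigned to eef-1A.1 by the 500 bp window alone.

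The DNA under the summits is printed so that the paired genes can be set side by side. It is the strand of the gene, 5′ to 3′, 100 bp to each side of the summit at base 101, from the RefSeq WBcel235 assembly. Capitals mark GAGAGA on either strand, the only searched motif found in these windows. The eef-1A.1 window is chrIII:6972007-6972207 on the minus strand and the eef-1A.2 window is chrX:7823172-7823372 on the plus strand.
eef-1A.1: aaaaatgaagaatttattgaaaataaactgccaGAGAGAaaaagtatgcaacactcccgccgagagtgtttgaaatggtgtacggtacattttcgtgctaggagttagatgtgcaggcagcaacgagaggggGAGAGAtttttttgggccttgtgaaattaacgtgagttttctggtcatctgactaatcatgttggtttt
eef-1A.2: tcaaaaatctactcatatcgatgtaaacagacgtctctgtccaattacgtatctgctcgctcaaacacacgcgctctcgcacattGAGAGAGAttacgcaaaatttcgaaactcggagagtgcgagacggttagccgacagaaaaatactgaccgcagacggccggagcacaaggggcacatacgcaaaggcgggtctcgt
Each window held 2 matches, those of eef-1A.2 overlapping, and their GC content was 40.3% and 49.8%. GAGAGA is not particular to this pair. In wider windows of 301 bp it was in 49.5% of those at all IDR summits and in 21.6% of coding promoters.

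The genes for the other elongation factors had weaker peaks right at their 5′ ends. The gene eef-2 encodes the GTPase that moves the ribosome by 1 codon, and its peak ranked 782 in the pooled list. It ranked 1788, 540 and 897 in replicates 2, 3 and 4, so replicate 2 fell outside the 1468 highest regions. The genes eef-1G and eef-1B.1 encode subunits of the exchange factor that reloads elongation factor 1-alpha with GTP. Their pooled ranks were 893 and 1133. The eef-1G peak ranked 3852, 700 and 1985, and the eef-1B.1 peak ranked 2422, 1782 and 627. Each was thus among the 1468 highest regions of 1 replicate only, and not of the same one.

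The summits of these 3 genes lay at −29 bp for eef-2, −38 bp for eef-1G and 27 bp inside the gene for eef-1B.1. All 3 genes stand beside a divergent gene whose 5′ end is also within 500 bp of the summit. The partners are clsp-1, a claspin homologue, for eef-2, ctf-4 for eef-1G, and aco-2, a mitochondrial aconitase gene, for eef-1B.1. In each case the eef gene has the nearer 5′ end.
The DNA at eef-1G is shown as an example of a peak whose replicate ranks spread widely, by 5.50 times. It is chrV:10965581-10965718 on the plus strand, with the summit at base 101, ends just before the annotated gene and has no searched motif.
eef-1G: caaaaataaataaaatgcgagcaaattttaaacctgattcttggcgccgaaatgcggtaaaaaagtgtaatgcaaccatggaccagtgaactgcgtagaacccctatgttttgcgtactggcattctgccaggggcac
The other exchange factor gene, eef-1B.2, was not bound. Its pooled candidate ranked 22531, and it had a region in replicate 4 only, at rank 2811. A same-strand gene, fcd-2, ends 294 bp upstream of it.

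**Figure D3:**
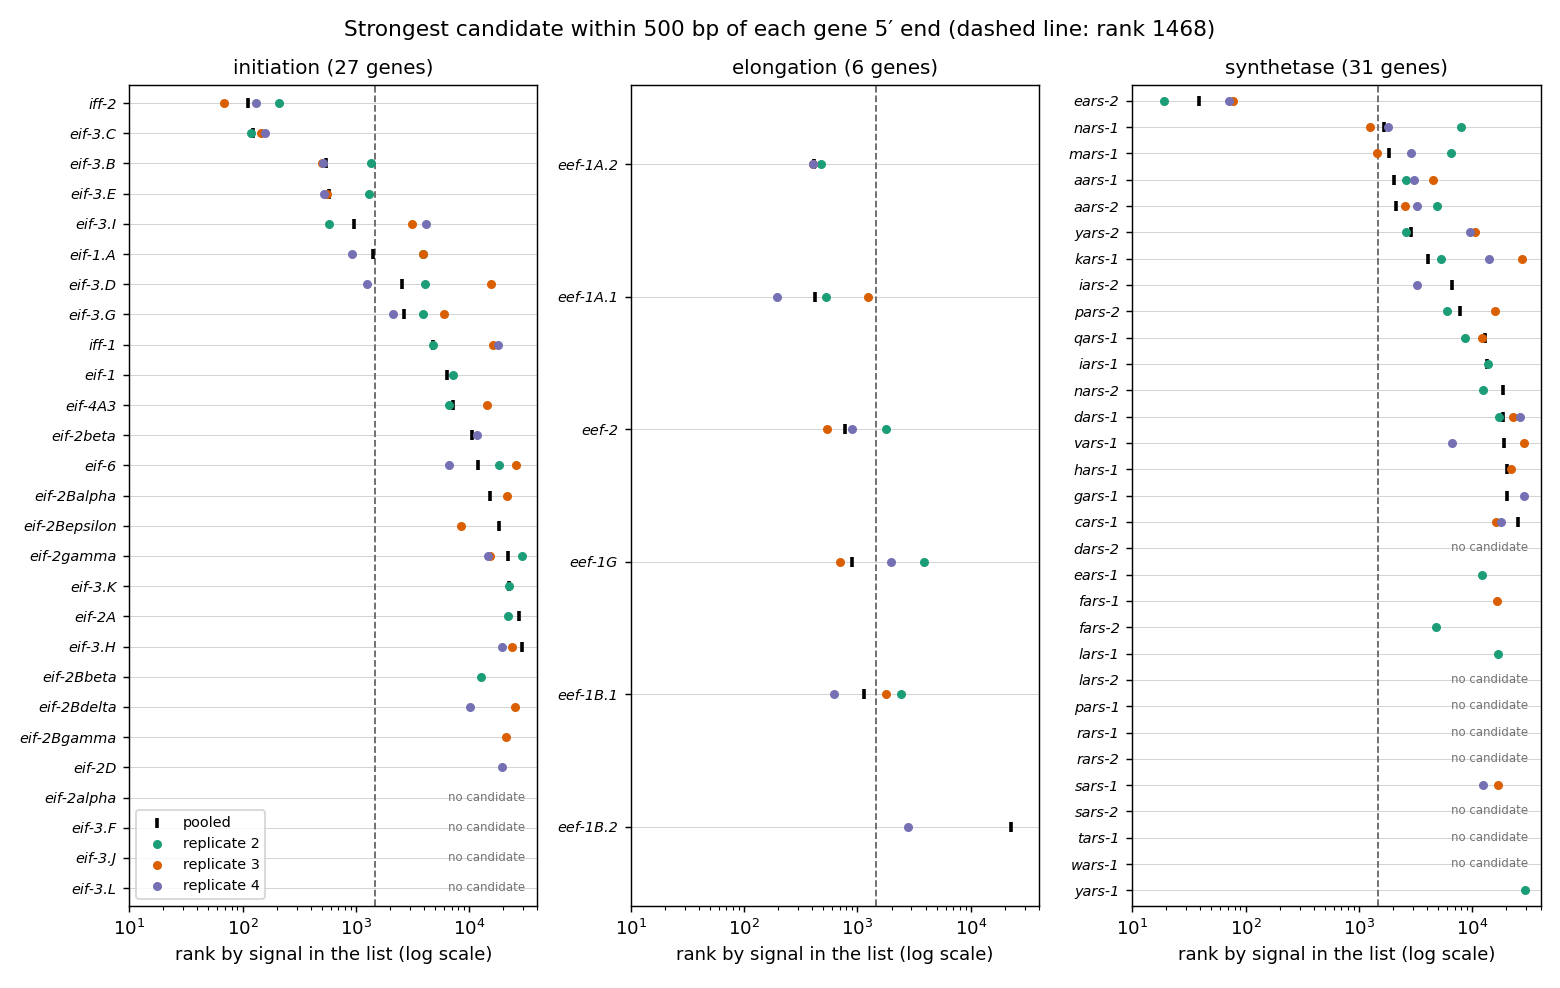
Rank by signal (horizontal log axis, 1 is highest) of the strongest candidate within 500 bp of each gene's 5′ end, with dots for replicates 2, 3 and 4 and black ticks for the pooled list. Left of the dashed line at rank 1468 lie the pooled ticks of 6 of 27 initiation, 5 of 6 elongation and 1 of 31 synthetase genes; 12 genes have no candidate in any of these lists.

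Among initiation genes the strongest peak was at iff-2. It encodes an initiation factor 5A, a factor known for the modified amino acid hypusine, which despite its name also helps elongating ribosomes. The pooled rank was 111 with a signal of 451.0, and the ranks in replicates 2, 3 and 4 were 208, 68 and 131. The summit lay at −55 bp and iff-2 had the nearest 5′ end. Its paralogue iff-1, which is known for a role in the germ line, had no IDR peak. The iff-1 candidate ranked 4841 in the pooled list and 4792, 16283 and 17825 in the replicates, and its summit was nearer to the divergent gene cdk-1. The replicate ranks of the paralogues did not overlap.

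Initiation factor 3 is the large scaffold that holds other factors on the small ribosomal subunit. Of the 11 genes named for its subunits, 4 were bound (36.4%, against 3.75% of all coding genes). The eif-3.C peak was strongest, with a pooled rank of 125, a signal of 419.5 and ranks of 119, 147 and 158. Its replicate ranks differed by only 1.33 times. The eif-3.B peak had a pooled rank of 540 and replicate ranks of 1349, 502 and 517. The eif-3.E peak had a pooled rank of 583 and replicate ranks of 1315, 562 and 524. For both, replicate 2 was the weakest, though still among its 1468 highest regions. The eif-3.I peak repeated least of all 12, with a pooled rank of 955 and ranks of 576, 3105 and 4158, a spread of 7.22 times. It lies 5′ of abtm-1, a mitochondrial transporter gene on the other strand, as well.

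The other subunit genes were weaker. The candidates of eif-3.D and eif-3.G ranked 2557 and 2660 in the pooled list. That of eif-3.D was among the 1468 highest regions of replicate 4 only, at rank 1251, and its summit was nearer to the divergent gene R08D7.4. The candidates of eif-3.K and eif-3.H ranked 22277 and 29386. The genes eif-3.F, eif-3.J and eif-3.L had no candidate in any list. The subunits of this 1 complex therefore ranged over nearly the whole pooled list.

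Windows at iff-2 and eif-3.B are printed as examples of strong initiation peaks with short and long distances to the gene. The strand is that of the gene and the summit is at base 101 in both. The iff-2 window (chrII:8561368-8561522, minus strand) ends at the annotated gene and holds no searched motif. The eif-3.B window (chrII:14795097-14795297, plus strand) has 1 match, in capitals, to TTTCAG, which is also the form of worm splice acceptors.
iff-2: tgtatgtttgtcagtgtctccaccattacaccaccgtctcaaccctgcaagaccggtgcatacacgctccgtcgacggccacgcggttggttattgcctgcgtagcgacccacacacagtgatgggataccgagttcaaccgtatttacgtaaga
eif-3.B: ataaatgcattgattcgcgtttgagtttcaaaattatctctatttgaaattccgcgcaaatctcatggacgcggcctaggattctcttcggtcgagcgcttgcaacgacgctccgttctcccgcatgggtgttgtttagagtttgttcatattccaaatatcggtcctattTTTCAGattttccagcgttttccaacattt

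Initiation factor 2, which delivers the initiator tRNA, and its exchange factor 2B had no peak in the IDR list at their genes. None of the 8 genes for their subunits was bound, and 3.75% of all coding genes were bound, so that 0 of 8 is near the background. The exact interval for 0 of 8 reaches 36.9% and covers the counting of genes only. The difference from factor 3 was not tested. Pooled candidates existed for 4 of the 8, against 31.3% of all coding genes, ranked from 10640 for eif-2beta to 22066 for eif-2gamma. The gene of the alpha subunit, eif-2alpha, had no candidate in any list. It is the subunit whose phosphorylation slows initiation under stress. Among the remaining initiation genes eif-1.A, for the factor that occupies the decoding site during scanning, had the weakest IDR peak of the 12. Its pooled rank was 1430, with a signal of 128.2, and its replicate ranks were 3929, 3940 and 920. Its partner in scanning, eif-1, had a candidate at rank 6435 whose summit lay in an exon of the divergent gene vps-24. The candidates of eif-4A3, eif-6 and eif-2A ranked 7256, 11996 and 27612, and eif-2D had none in the pooled list.

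The synthetase genes had 1 strong peak and then a gap. The peak at ears-2, for the mitochondrial glutamyl-tRNA synthetase by its RefSeq product name, was the strongest of all 12. It had a pooled rank of 39, a signal of 619.2 and ranks of 19, 78 and 72 in replicates 2, 3 and 4. The peak (IV, 390331 to 390636) spans the whole 91 bp between ears-2 and the divergent gene uncp-18, a syntaxin-binding protein gene, and reaches into both. Its summit is 24 bp upstream of ears-2. The 500 bp window holds both 5′ ends, so the peak belongs to uncp-18 by the same rule. That stretch between the genes is printed in full, since it carries the only synthetase peak (chrIV:390469-390559, minus strand, summit at base 68). It has a GC content of 53.8% and no searched motif.
ears-2: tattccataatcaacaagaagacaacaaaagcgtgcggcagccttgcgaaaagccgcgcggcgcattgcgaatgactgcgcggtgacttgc

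The next synthetase genes fell just outside the IDR list. Pooled ranks between 1468 and 2936, the next stretch of equal length, held 7 of the 64 genes, and 5 of them were synthetase genes, where 2.62% of all coding genes had their best rank in that stretch (524 of 19973). These were nars-1 for asparagine (rank 1660, signal 119.6), mars-1 for methionine (1825, 114.8), aars-1 and aars-2 for alanine (2036 and 2103, with signals of 109.6 and 108.1) and yars-2 for tyrosine (2908, 94.1). The lowest signal in the IDR list was 126.7. In replicate 3 nars-1 ranked 1254 and mars-1 ranked 1432, inside the 1468 highest regions, which gave that replicate its higher synthetase share. In replicate 2 they ranked 7942 and 6434. The nars-1 summit was nearer to the divergent gene nduf-6, for a subunit of respiratory complex I. By rank 2936 the pooled list had reached 6 of 31 synthetase genes, 8 of 27 initiation and 5 of 6 elongation factor genes, against 6.37% of all coding genes (1272 of 19973).

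Genes numbered 1 and 2 for the same amino acid could be set side by side for 11 letters. Both had a pooled candidate in 3 pairs (aars, iars and nars), 1 had one in 4 pairs (dars, ears, pars and yars) and neither in 4 (fars, lars, rars and sars). The 2 alanine genes had similar replicate ranks, of 2585, 4515 and 3079 for aars-1, the mitochondrial enzyme, and 4844, 2534 and 3273 for the cytoplasmic aars-2. Only the 2 glutamate genes differed in whether they were bound. The gene ears-1 had no pooled candidate, and among the replicates it had a region in replicate 2 only, at rank 12306. Of the 9 synthetase genes without such a partner, kars-1 for lysine had the candidate of second-highest rank after mars-1, at 4047. In the replicates kars-1 ranked 5336, 27591 and 14000, so it was far down the list in replicates 3 and 4. No candidate in any list lay at dars-2, lars-2, pars-1, rars-1, rars-2, sars-2, tars-1 and wars-1.

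Of the 12 bound genes, 7 were found among the 1468 highest regions of every replicate (eef-1A.1, eef-1A.2, eif-3.B, eif-3.C, eif-3.E, iff-2 and ears-2). These 7 are 10.9% of the 64 genes, against 1.80% of all coding genes. Of the other 5, eef-2 was found in 2 replicates, and eef-1G, eef-1B.1, eif-1.A and eif-3.I in 1 each. Of the 5 bound elongation factor genes, only the eef-1A genes repeated throughout. Such losses were common in the IDR list as a whole, where 631 of the 1468 peaks were found in every replicate. Among all coding genes 748 were bound, and 359 had a summit among the 1468 highest regions of every replicate. In position the replicates differed little at the 12 bound genes. For all 12 every replicate had a summit within 100 bp of the IDR summit, the farthest at 56 bp. The share of all IDR peaks for which this holds was not computed, so it is not known to be particular to these genes. The IDR summits also come from the pooled reads of the same replicates, which favours close positions.

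Summit positions fell into 2 groups that matched the distance from the annotated 5′ end to the start codon. In 5 of the 12 genes (eef-1B.1, eef-1G, eef-2, iff-2 and ears-2) the start codon lies 54 to 412 bp inside the gene, and their summits lay from −55 to 27 bp. In the other 7 the start codon lies 2 to 32 bp inside, and their summits lay from −395 to −181 bp. The ranges did not overlap. Over the bound coding genes that have an annotated start codon, with the same split at 50 bp, the median summit lay at −74.5 bp for the 234 genes with the longer distance and at −234 bp for the 512 with the shorter. Summits within 60 bp of the 5′ end made up 30.3% and 3.32% of them. The split was chosen after these values were seen. In worms the annotated 5′ end of many genes is the site where a spliced leader is joined and not the start of transcription; for which of these genes that holds was not tested. Over all 12 genes the median offset was −182.5 bp, close to −199 bp for all 748 bound coding genes. With a window of 250 bp, which leaves out the farther summits by construction, it was −55 bp over 9 genes.

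**Figure D4:**
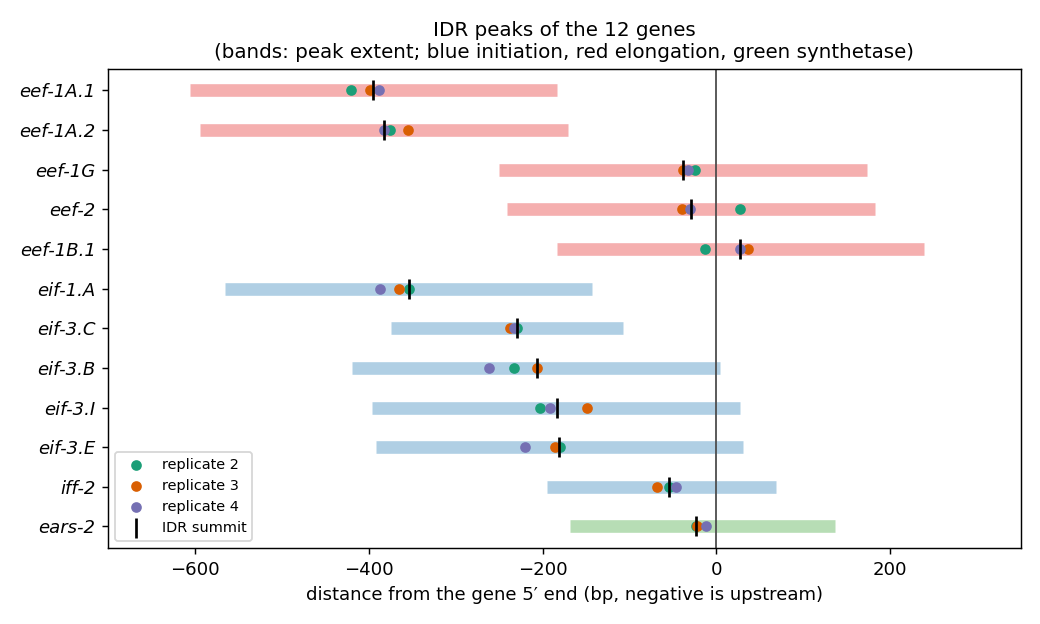
Distance from the annotated gene 5′ end in bp (horizontal axis, negative upstream) of the IDR summit (black tick), the peak's extent (band) and the strongest region of each replicate (dots) for the 12 bound genes. The summits of eef-1G, eef-2, eef-1B.1, iff-2 and ears-2 lie between −55 and 27 bp and the other 7 between −395 and −181 bp.

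Most bound genes lay next to a gene on the other strand. The next coding gene upstream was on the opposite strand and within 1000 bp for 9 of the 12 bound genes, on the same strand within 1000 bp for 1 (eif-3.C, 400 bp from sys-1) and farther away for 2. An opposite-strand neighbour within 1000 bp was common among bound coding genes in general, at 373 of 748. Of all 64 genes, 31 had such an opposite-strand neighbour and 9 of these were bound, against 8.78% of the 4246 coding genes in that position. A same-strand neighbour within 1000 bp stood upstream of 21, of which 1 was bound, against 2.32% of 6131 coding genes. Of the 12 genes with no coding gene within 1000 bp upstream 2 were bound, against 2.43% of 9596. Such a neighbour stood beside 4 of 6 elongation factor genes, of which all 4 were bound. It stood beside 15 of 27 initiation factor genes, of which 4 were bound, and beside 12 of 31 synthetase genes, of which 1 was bound. For 6 of the 12 peaks another coding 5′ end lay within 500 bp of the summit, and for these the window cannot tell which gene the peak belongs to. They are the peaks at eef-1A.1, eef-1B.1, eef-1G, eef-2, eif-3.I and ears-2, so most of them are at elongation factor genes. The translation gene had the nearest 5′ end of any gene in 10 of 12 cases and of any coding gene in 11. Among all coding genes 2.31% were the nearest gene of any kind to an IDR summit and 2.96% the nearest coding gene. The summit lay outside coding genes in 11 and in an exon, of eef-1B.1 itself, in 1. A microRNA gene lay within 500 bp in 1 case and a tRNA, small nucleolar or small nuclear RNA gene in none. The counts of shared 5′ ends, of summit place and of small RNA genes were not made for all bound coding genes. Whether they are usual for the IDR list is therefore not known.

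The DNA around these summits was poorer in GC than at IDR peaks in general. In windows of 301 bp the median GC content was 37.7% at the 12 bound genes (range 32.9 to 50.8). It was 45.8% at all 1468 IDR summits and 33.2% upstream of all coding genes. Only 589 of the IDR peaks were peaks at coding genes, and neither GC content nor motifs were computed for those apart. Whether the lower GC content is particular to translation genes was therefore not tested. The motif GAGAGA, sought on both strands like the others, was in 3 of the 12 windows (eef-1A.1, eef-1A.2 and eif-1.A), in 49.5% of windows at all IDR summits and in 21.6% of coding promoters. TTTCAG was in 7 of the 12, in 21.9% of IDR windows and in 48.3% of coding promoters. The 7 are eef-1B.1, eef-1G, eif-3.B, eif-3.C, eif-3.E, eif-3.I and iff-2. At eef-1G and iff-2 the match lies outside the shorter windows printed above. TATAAA was in 3 (eef-1A.1, eif-3.B and eif-3.I), in 18.0% and in 39.7%. GGGCGG was in 1, at eif-1.A, with 18.3% and 7.94%, and CACGTG in none, with 5.72% and 5.75%. The tRNA promoter elements, the A box and the B box, were in none of the 12. They were in 3.27% and 10.6% of IDR windows and in 0.165% and 0.23% of coding promoters. As shares of the 12 windows, GAGAGA (3 of 12), TTTCAG (58.3%) and GGGCGG (8.33%) stood nearer to coding promoters than to the IDR list. TATAAA (3 of 12) stood nearer to the IDR list. Each window is 8.33% of the 12, so 1 more window would reverse the placing of GGGCGG or TATAAA. No conclusion is drawn from these placings. The promoter windows were placed directly upstream of the 5′ end and the others around summits.

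A list of other translation genes outside the naming rule was read in the same way. Of the 33 found in the gene models, 3 were bound (9.09%, against 3.75% of all coding genes). They were erfa-3, for the release factor GTPase (pooled rank 507, replicate ranks 545, 680 and 369), pab-2, for a poly(A)-binding protein (634, with 1437, 503 and 484), and ife-4, for a cap-binding protein (1235, with 1930, 1660 and 3879). The erfa-3 and pab-2 peaks were among the 1468 highest regions of every replicate and that of ife-4 of none. The release factor gene erfa-1, the partner of erfa-3, had a candidate at rank 13991. The gene ifg-1, for the scaffold of the cap-binding complex, had one at 19216, and inf-1, for its helicase, had none in the pooled list.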

How the data were processed

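The 3 samples are biological replicates of 1 group. Per the deposited README texts, the authors made each replicate's list of peaks and background from its alignment and 2 control files, made a pooled list from the 3 alignments, and derived the IDR-thresholded list from these, all on ce11. For the caller, its version and the IDR threshold the answer is: not given in the sources used here. The deposited signal values (column 7, scale not stated) served to order regions inside each list. The deposited −log10 q-values were not used for ranking or filtering. Read depth is unknown.

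Ensembl release 115 models of WBcel235 (the same assembly as ce11) gave the gene 5′ ends, and no region ran past a chromosome end. RefSeq gave product names for 64 of the 64 genes, and the genome sequence. Coordinates are 1-based. A summit within 500 bp of a 5′ end was assigned to the gene, and each replicate list was read to the length of the IDR list (1468 regions). Printed windows were trimmed where annotated coding exons begin. Python 3.11.15, pandas 2.3.3, numpy 2.4.6 and scipy 1.17.1 were used, and the window counting was checked on simulated data. No test was run, since there is 1 group.

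The members, lists and motifs were chosen with earlier results of these data known. Genes were named by a rule that takes every bound gene, every gene among the 1468 highest regions of any replicate, the 3 highest others of each class, and paralogue pairs. Other genes named with values were chosen after their values were seen. Alternatives covered the window, the set of 5′ ends, the assignment to the nearest gene, a stricter peak list, the number of regions per replicate, the class of iff genes and leaving out each replicate.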

Additional observations from a re-analysis of the deposited data

How the results depend on the processing

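Of 69 recomputed values, 52 stayed within 1.5 times the count (or 1 SD of a mean or offset). The counts of bound initiation and synthetase genes were among these under every alternative run, at 4 to 7 and at 1. The 12 bound genes became 7 with the 734 IDR peaks of highest signal and 7 with IDR peaks found in every replicate, and 7 to 8 when peaks had to be found in both remaining replicates with 1 left out. In the last setting it was 7 without replicate 3 or 4 and 8 without replicate 2, with the IDR list not remade. The 5 bound elongation genes became 3 within 250 bp, 3 when a peak counted only for the closest gene of any kind, 2 among those 734 peaks, 2 with peaks found in every replicate, and 2 to 3 with a replicate left out (3 without replicate 2, and 2 without replicate 3 or 4). Fewer peaks by construction lower these counts, and the share of all coding genes fell too, to 1.92% for those 734 peaks, to 1.71% with peaks found in every replicate and to between 2.05% and 2.16% with a replicate left out. Within 250 bp 26 genes had a pooled candidate in place of 42 (all coding genes 18.5% in place of 31.3%), and 4 in place of 7 were found in every replicate (0.926% in place of 1.80%), as were 4 with 734 regions per replicate (0.996%). The mean share of the genes per replicate, 15.6% beside 3.43% of all coding genes, was 10.4% beside 1.95% within 250 bp, 21.4% beside 5.74% with 2936 regions and 11.5% beside 1.83% with 734. The median offset of −182.5 bp was −55 bp within 250 bp. This shift was counted among the 52 values, and the offset stayed negative in all 6 of its alternatives. Counts and shares cannot change sign. No paired analysis was possible because there is 1 group of samples, and differences between gene classes were taken within each replicate. Read depth is unknown, so what it limits cannot be given.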
